A study of Danio rerio with 2 samples.

Results

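The 31 genes described here encode the enzymes of zebrafish glycolysis from glucose entry to lactate, with their paralogues. They were taken by symbol from the 32057 genes of both count matrices and fall into 12 steps, of which 11 are represented by more than 1 gene. All 31 symbols were found. Transcripts were counted in single cells of the injured tissue and border zone of adult zebrafish ventricles at 120 hours post-cryoinjury (hpci). The cd74a;cd74b mutant library and the wild-type library each pooled 4 ventricles (2 females and 2 males), and each genotype has 1 library. CD74 is the chaperone that guides MHC class II molecules to the compartment where they bind antigen. The labels give no age, strain or allele for either genotype, and the fish of a pool cannot be told apart. For the study as a whole, its methods give the AB strain, a range of ages in months and 1 mutant allele each of cd74a and cd74b. Since a genotype is 1 library, the genotypes could not be tested against each other, and all intervals below are 95% intervals that cover counting error only.

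Glycolysis converts glucose to pyruvate in the cytosol, and lactate dehydrogenase then interconverts pyruvate and lactate. Because of an ancient genome duplication, many zebrafish enzymes of the pathway exist as a pair of paralogues, named with a and b. In vertebrates several steps also have a form typical of striated muscle (pfkm, aldoa, pgam2, eno3) beside broader or brain-type forms (pfkp, aldoc, pgam1, eno1). The healthy heart draws most of its ATP from fatty acid oxidation, and cardiomyocytes of the regenerating zebrafish heart are known to shift towards glycolysis. Activated macrophages also use glycolysis heavily.

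The mutant library held 15142 barcodes, of which 7174 (47.4%) were kept as cells, and the wild-type library held 4607, of which 3589 (77.9%) were kept. A kept cell had a median of 1641 unique molecular identifiers (UMIs) in the mutant library and 1404 in the wild-type library, of which a median of 22.3% and 14.99% were mitochondrial. The share of non-mitochondrial UMIs from ribosomal protein genes was 46.2% in mutant cells and 38.3% in wild-type cells. The libraries shared 15 barcode sequences. The targeted genes cd74a and cd74b stood at 86.9 and 49.8 CPM (UMIs per 1000000 non-mitochondrial UMIs) in mutant cells, against 1170.3 and 496 CPM in wild-type cells. These library-wide differences in depth and content cannot be told apart from genotype.

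Cells were grouped without the 31 genes, and classes were named from marker genes only. Most of the 15 clusters were dominated by 1 library, so a class could draw on different clusters in the 2 genotypes. The cardiomyocyte-like class held 74 mutant and 442 wild-type cells in 2 clusters. Cluster 14 (35 mutant and 65 wild-type cells) was led by myl7 and cmlc1, and cluster 10 (39 and 377 cells) also carried 8 of 8 erythrocyte markers more than 2-fold above the other cells of its library. In wild-type cells, cardiomyocyte markers took 3.74% of non-mitochondrial UMIs in cluster 10 and 12.11% in cluster 14. Fibroblast markers took 1.71% and 0.22%, so wild-type values of the class, mostly from cluster 10, include transcripts of other cell types. The endocardial-like class was a single cluster of 581 mutant and 324 wild-type cells, and the coronary endothelial-like class a single cluster of 400 and 85. Macrophage-like cells numbered 1430 and 954, and lay mostly in cluster 3 in the mutant library (1326 cells) and in cluster 5 in the wild-type library (915 cells). Fibroblast-like cells numbered 2307 and 1212, mostly in cluster 1 in the mutant library (1787 cells) and in clusters 4 and 8 in the wild-type library (821 and 368 cells). The epicardial or epithelial-type-like class held 121 and 256 cells. An endothelial-like class had 30 mutant and 257 wild-type cells and was left out of genotype ratios. Clusters 2, 7 and 13 stayed unnamed. Cluster 7 (671 mutant and 28 wild-type cells) shared the leading genes bmp6 and edn2 with cluster 12, the endothelial-like class. The 30 mutant cells of that class may therefore not be all such cells in the mutant library. Cluster 2 (1449 mutant and 31 wild-type cells) carried cardiomyocyte and haemoglobin transcripts at a median mitochondrial share of 38.2%.

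Glycolysis transcripts were most abundant in cardiomyocyte-like cells. The 31 genes summed to 15151 CPM (14337 to 15999) in mutant and 12514 CPM (12194 to 12839) in wild-type cardiomyocyte-like cells, or 1.52% and 1.25% of their non-mitochondrial UMIs. In the mutant library the next classes were macrophage-like (3301 CPM), endocardial-like (3115 CPM), endothelial-like (2889 CPM), fibroblast-like (2466 CPM), coronary endothelial-like (2351 CPM) and epicardial or epithelial-type-like cells (1579 CPM), where the fibroblast-like interval overlapped those of both endothelial classes, and the macrophage-like interval overlapped those of endocardial-like and endothelial-like cells. In the wild-type library the order was macrophage-like (6962 CPM), coronary endothelial-like (5669 CPM), endothelial-like (4726 CPM), fibroblast-like (4296 CPM), endocardial-like (4182 CPM) and epicardial or epithelial-type-like cells (2836 CPM), where fibroblast-like and endocardial-like intervals overlapped. Among the named classes macrophage-like cells stood second in both libraries, apart from the next class in the wild-type library but not in the mutant one. The unnamed cluster 2, which carried cardiomyocyte transcripts, lay above them. It stood at 6069 CPM (5929 to 6211) in 1449 mutant cells and 7918 CPM (6756 to 9223) in 31 wild-type cells. The removed barcodes, defined below, stood at 5172 CPM in the mutant and 5339 CPM in the wild-type library.

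Of the 31 genes, 22 had at least 50 UMIs over all kept cells, counting both libraries. Among the other 9, slc2a1a, the glucose transporter GLUT1, and the liver-type phosphofructokinase pfklb had 0 UMIs in each library, which allows up to 0.298 CPM in mutant cells and 0.553 CPM in wild-type cells. The second GLUT1 gene slc2a1b had 8 UMIs in mutant cells and 0 in wild-type cells. The other 6 had, in mutant and wild-type cells, 5 and 2 UMIs (gpib), 4 and 3 (pfkma), 3 and 4 (pfkla), 12 and 6 (tpi1a), 26 and 17 (eno1b) and 4 and 5 (eno2). Several paralogue pairs were therefore represented almost by 1 gene: gpia carried 99.2% and 99.7% of the glucose-6-phosphate isomerase UMIs in mutant and wild-type cells, tpi1b 99.3% and 99.7% of the triose-phosphate isomerase UMIs, and pkma 97.8% and 97.5% of the pyruvate kinase UMIs. UMIs of 3' libraries count molecules and were not scaled by gene length, and how reads matching near-identical paralogues were assigned is not given in the sources used here.

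**Figure D1:**
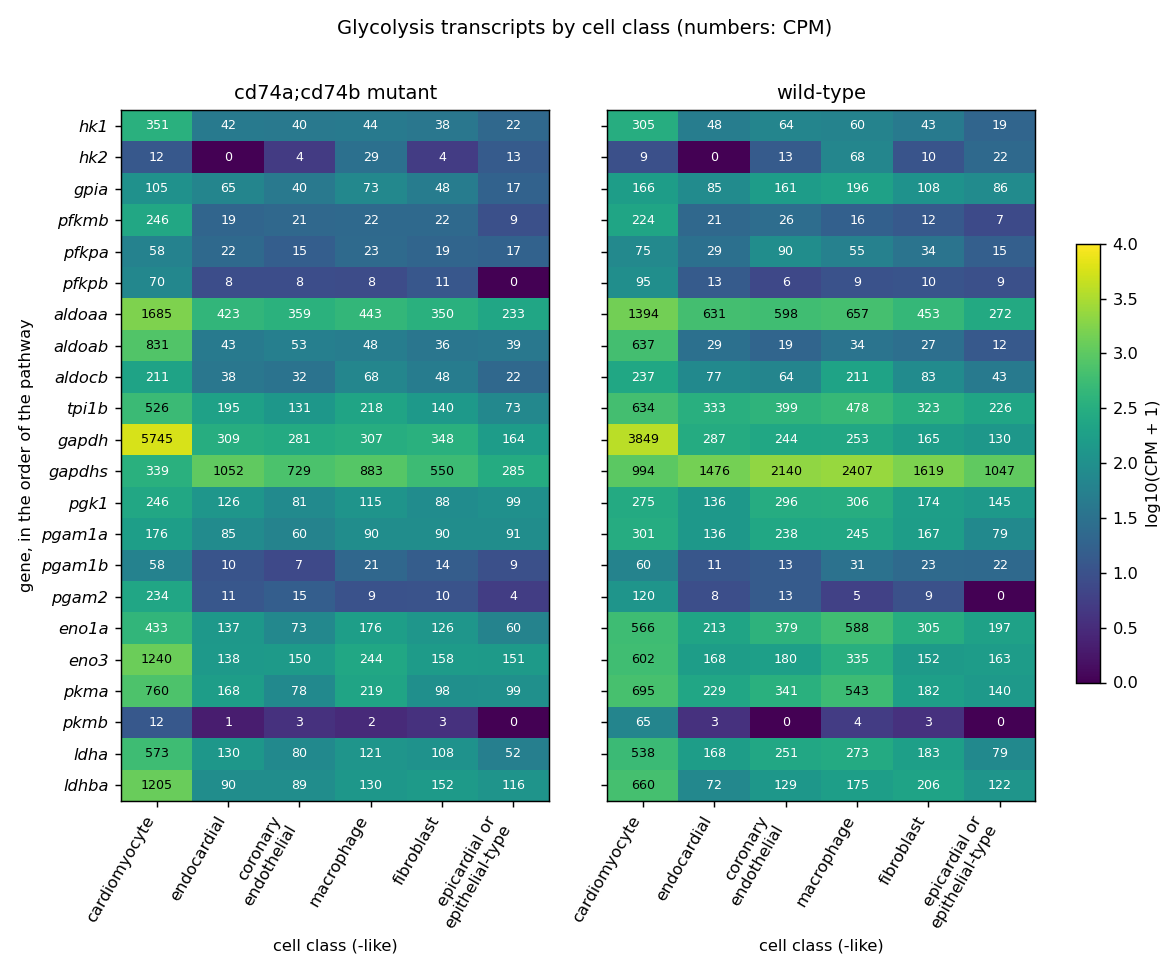
CPM of the 22 genes with at least 50 UMIs over all kept cells, in pathway order from top to bottom, for 6 cell classes in the cd74a;cd74b mutant library (left) and the wild-type library (right), with colour on a log10 scale. The cardiomyocyte-like column is the brightest in both panels for gapdh (5745 and 3849 CPM), whereas gapdhs is lower there (339 and 993.5 CPM) than in endocardial-like cells (1052 and 1476 CPM). Epicardial or epithelial-type-like cells are similarly low in gapdhs.

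Relative to all other named classes of the same library, 20 of the 22 genes were higher in cardiomyocyte-like cells in both libraries, where 52.4% of all 7839 genes with as many UMIs were. The median log2 ratio over the 22 genes was 2.26 in the mutant library and 1.42 in the wild-type library, beside 0.58 and 0.39 over all genes. By size, 7 genes were at least 4-fold higher in both libraries, against 4.5% of all genes. These were aldoab, gapdh, hk1, pfkmb, pfkpb, pgam2 and pkmb, although pkmb had only 1 UMI in mutant cardiomyocyte-like cells and 30 in wild-type ones. Its mutant fold had an interval of 0.12 to 33.2. In the other named classes pkmb had only 17 mutant and 14 wild-type UMIs. It reached the UMI limit of the 22 genes only with the UMIs of cardiomyocyte-like cells, the class in which it was high. The place of pkmb among the 20 and the 7 is therefore not read as a result. The 30 wild-type UMIs of pkmb all came from cluster 10, which also carried the erythrocyte markers, and cluster 14 had 0. Since the classes were defined on the same cells, these are descriptions of the class and not tests.

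The genes furthest above the other classes included some muscle-type forms. By UMIs the largest was gapdh, at 5745 CPM in mutant cardiomyocyte-like cells, 17.97-fold (16.3 to 19.8) above the other classes, and at 3849 CPM in wild-type ones, 19.2-fold (17.7 to 20.7) above. The aldolase aldoab, which splits fructose 1,6-bisphosphate into triose phosphates, stood at 831 CPM in mutant cardiomyocyte-like cells, 19.7-fold (15.04 to 25.6) above the other classes, and at 637 CPM in wild-type ones, 22.7-fold (18.5 to 27.9) above. The muscle phosphoglycerate mutase pgam2 was at 234 CPM in mutant cells, 23.3-fold (13.5 to 38.5) above the other classes, and at 120.4 CPM in wild-type cells, 17.9-fold (11.5 to 28.5) above. The phosphofructokinase pfkmb, subunit of the enzyme that commits sugar to the pathway, was at 246 and 224 CPM, 11.7-fold and 17.2-fold above. Hexokinase hk1, which traps glucose as glucose-6-phosphate, was at 351 and 305 CPM, 8.84-fold and 6.79-fold above. The broader phosphofructokinase pfkpb was 7.80-fold and 8.77-fold above. The muscle enolase eno3 ranked lower, at 7.04-fold and 3.00-fold, as did aldoaa, at 4.41-fold and 2.73-fold. The pyruvate kinase pkma, which was the main form in every class, was 5.59-fold and 2.48-fold higher. By contrast, phosphoglycerate kinase pgk1 was only 2.48-fold and 1.36-fold higher, and for gpia the interval of the ratio reached below 1 in both libraries (0.877 to 3.70 and 0.999 to 1.63).

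The 2 genes that were not higher in both libraries were gapdhs and hk2. The gene gapdhs, a second glyceraldehyde-3-phosphate dehydrogenase that carries the name of the mammalian sperm form, was lower in cardiomyocyte-like cells in both libraries, with a log2 ratio to the other classes of -1.07 (-1.65 to -0.54) in mutant and -0.83 (-0.97 to -0.70) in wild-type cells. A low level was not particular to this class. Epicardial or epithelial-type-like cells held 0.94% of mutant and 6.63% of wild-type gapdhs UMIs, against 2.30% and 10.8% of the non-mitochondrial UMIs. Hexokinase 2, the inducible hexokinase of mammals, had 118 UMIs in mutant and 128 in wild-type cells. Of these, 57 (48.3%) and 82 (64.1%) came from macrophage-like cells, which held 19.7% and 22.2% of the non-mitochondrial UMIs. It reached 28.8 CPM in mutant and 67.9 CPM in wild-type macrophage-like cells, against 11.7 and 8.60 CPM (1 and 4 UMIs) in cardiomyocyte-like cells, and was not detected in endocardial-like cells, which allows up to 3.34 and 7.98 CPM. The log2 ratio of hk2 in cardiomyocyte-like cells to the other classes was 0.18 (-5.14 to 2.70) in the mutant library. In the wild-type library it was -1.54 (-3.44 to -0.15), so hk2 was lower there only.

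**Figure D2:**
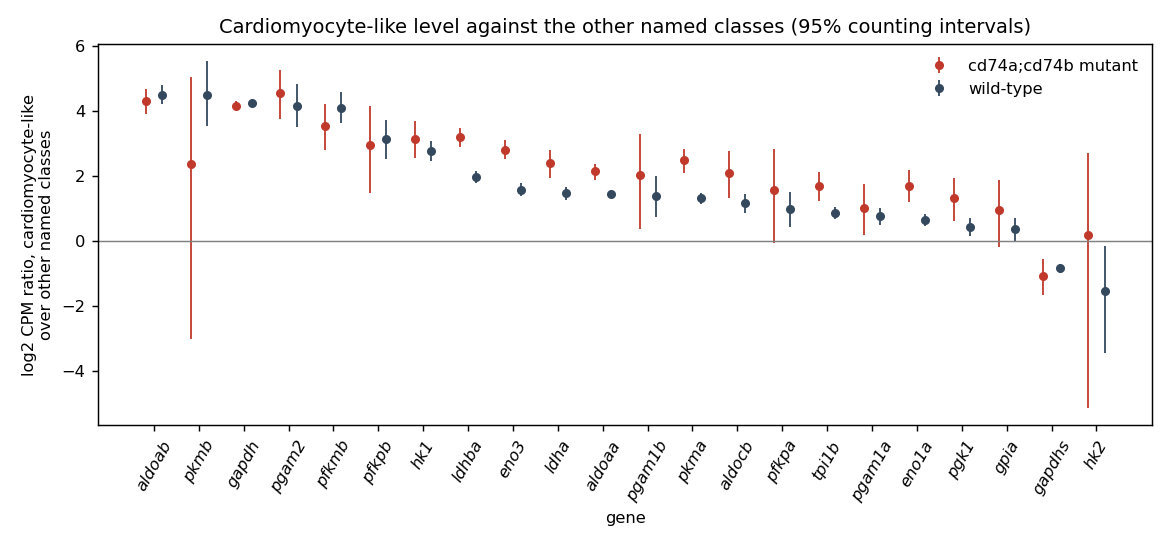
Log2 ratio of CPM in cardiomyocyte-like cells over all other named classes of the same library for the 22 genes, with 95% counting intervals, mutant points left of wild-type points and genes ordered by the wild-type ratio. Most genes lie above 0 in both libraries, gapdhs lies below 0 in both (-1.07 and -0.83), and hk2 and mutant pkmb rest on few UMIs.

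The glyceraldehyde-3-phosphate dehydrogenase step, which captures energy as NADH, divided the classes most clearly. In cardiomyocyte-like cells gapdh made up 94.4% (92.1 to 96.2) of the step's UMIs in the mutant library and 79.5% (77.8 to 81.1) in the wild-type library. In every other class with a value gapdhs was the leading gene in both libraries, with 72.2% to 77.3% of the step in mutant endocardial-like, coronary endothelial-like and macrophage-like cells, 61.2% in mutant fibroblast-like cells, and 83.7% to 90.8% in the same wild-type classes. Within the cardiomyocyte-like class the gapdh share was 96.7% (mutant) and 91.4% (wild type) in cluster 14, and 83.7% and 75.2% in cluster 10. The removed barcodes, those with 300 genes or fewer or more than 70% mitochondrial UMIs, had a gapdh share of 65.6% and 48.1%.

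Across the classes, cardiomyocyte-like cells included, the level of gapdh moved with the cardiomyocyte markers. Over the 6 classes, gapdh had 56.1 to 79.6 UMIs per 1000 UMIs of the 12 summed cardiomyocyte markers in the mutant library and 62.1 to 89.3 in the wild-type library, a spread of 1.42-fold and 1.44-fold. Cardiomyocyte-like cells themselves had 67.5 (61.6 to 73.7) and 72.2 (68.9 to 75.6), and the removed barcodes 75.2 (72.9 to 77.5) and 68.7 (62.8 to 74.9). The same quotient for gapdhs spread 67.9-fold over the classes in the mutant library and 45.7-fold in the wild-type library. For aldoab the spread was 1.74-fold and 1.95-fold and for pfkmb 1.91-fold and 2.08-fold, although some classes held as few as 2 UMIs, whereas for eno3 it was 14.6 to 60.4 UMIs per 1000 in the mutant and 11.3 to 119 in the wild-type library, and for aldoaa 19.8 to 110 and 26.1 to 232. These spreads include the cardiomyocyte-like class, where the markers are high by definition. Over the 5 other classes aldoaa had 75.9 to 110 (mutant) and 157 to 232 (wild type). There gapdhs had 97.5 to 271 and 378 to 851. Outside cardiomyocyte-like cells the quotient thus did not set gapdh apart from aldoaa. The cardiomyocyte markers took 0.29% to 0.46% of non-mitochondrial UMIs in the 5 other mutant classes and 0.17% to 0.39% in the wild-type ones, against 8.51% and 5.33% in cardiomyocyte-like cells, and 11 or 12 of the 12 markers were above 0 in each of these classes. When the profile of the removed barcodes was taken as free RNA, which was not tested, and subtracted in proportion to haemoglobin UMIs, the gapdh share was 4.36%, 7.51%, 4.65% and 9.26% in mutant endocardial-like, coronary endothelial-like, macrophage-like and fibroblast-like cells, and 0.00%, 2.73%, 0.16% and 0.00% in the wild-type ones. Values below 0 were set to 0, so 0.00% means that more gapdh was subtracted than the class held. The subtracted profile had a higher gapdh share than these classes, so the fall was fixed in advance. The values do not show whether these classes make gapdh themselves.

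**Figure D3:**
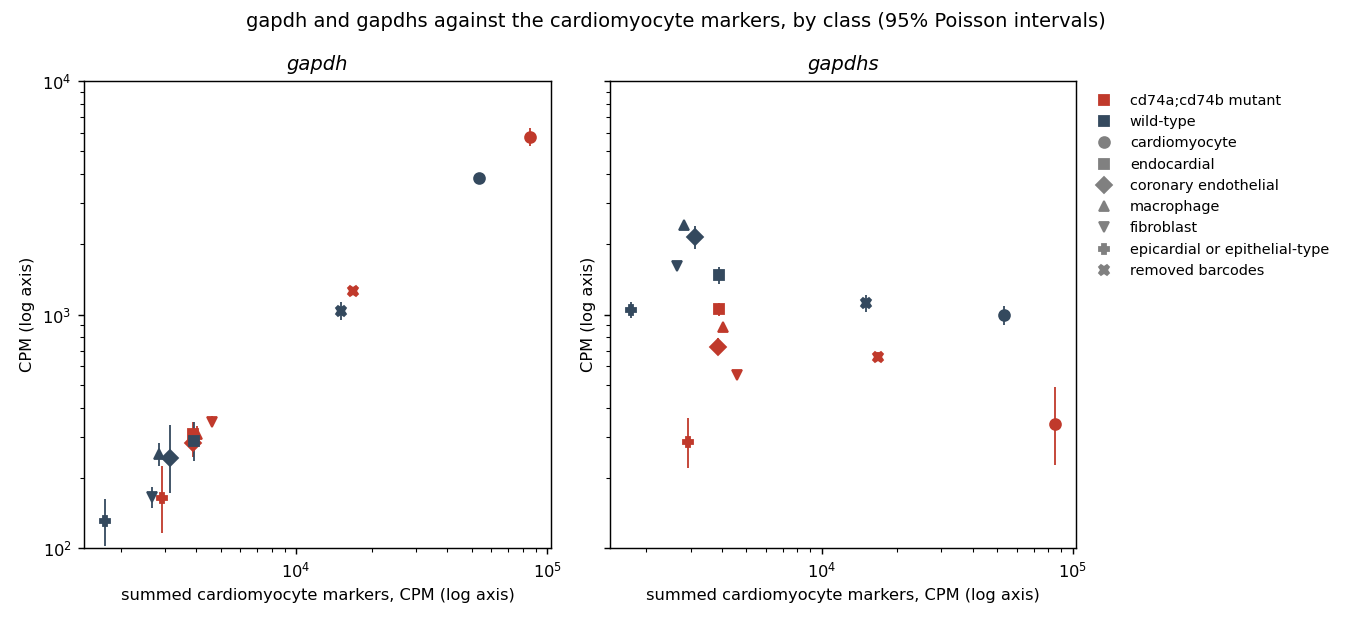
CPM of gapdh (left) and gapdhs (right) against the summed CPM of 12 cardiomyocyte markers on log axes, for 6 classes and the removed barcodes, with mutant points in red and wild-type points in dark blue and 95% Poisson intervals. The gapdh points of both libraries follow the markers closely, whereas gapdhs shows no such order and is lower in the mutant library in each class.

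At the other steps the forms were more mixed. The paralogue aldoaa led the aldolase step in all 6 classes of both libraries, with 61.8% (mutant) and 61.5% (wild type) in cardiomyocyte-like cells, where aldoab took 30.5% and 28.1%. The brain-type aldolase aldocb was largest in wild-type macrophage-like cells, at 23.4% (20.9 to 26.0), against 12.2% (10.3 to 14.3) in mutant ones. In the enolase step, which forms phosphoenolpyruvate, the muscle-type eno3 made up 73.6% (65.6 to 80.6) in mutant and 51.4% (47.1 to 55.6) in wild-type cardiomyocyte-like cells. The wild-type interval includes equal shares of eno3 and eno1a. In phosphoglycerate mutase, pgam1a led in every class with a value, from 73.8% in mutant coronary endothelial-like cells to 90.4% in wild-type endothelial-like cells, apart from wild-type cardiomyocyte-like cells at 62.5%. In these the muscle form pgam2 took 56 of the 224 UMIs of the step. In phosphofructokinase, pfkmb led in wild-type cardiomyocyte-like cells with 55.9% (48.5 to 63.2), and pfkpa in wild-type macrophage-like and fibroblast-like cells with 69.1% (58.9 to 78.1) and 75 of 125 UMIs. Heart-type lactate dehydrogenase ldhba led in cardiomyocyte-like cells (67.8% and 55.1%), and ldha in endocardial-like cells, with 117 of 198 mutant and 63 of 90 wild-type UMIs of the step.

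Over the 40 combinations of step and class with at least 50 UMIs of the step in both libraries, the leading paralogue was the same gene in 32 and another gene in 8. In 4 of the 8, eno3 led in mutant cells and eno1a in wild-type cells: coronary endothelial-like (eno3 66.5% in mutant against 31.8% in wild-type cells), macrophage-like (57.4% against 35.9%), fibroblast-like (55.4% against 33.1%) and endocardial-like cells (49.6% against 43.4%). The intervals of the endocardial-like pair overlapped, and those of the other 3 pairs did not. In the removed barcodes eno3 led in both libraries, with 65.9% in the mutant and 52.1% in the wild-type library. The other 4 were hexokinase in macrophage-like cells (hk1 in mutant, hk2 in wild-type cells), lactate dehydrogenase in coronary endothelial-like and macrophage-like cells (ldhba in mutant, ldha in wild-type cells), and phosphofructokinase in fibroblast-like cells (pfkmb in mutant, pfkpa in wild-type cells). Each of these rested on a near tie in 1 library. Mutant macrophage-like cells had 258 ldhba and 240 ldha UMIs, and in their cluster 3 ldha led with 229 against 227. Mutant coronary endothelial-like cells had 67 ldhba and 60 ldha UMIs, wild-type macrophage-like cells 82 hk2 and 72 hk1 UMIs, and mutant fibroblast-like cells 80 pfkmb and 69 pfkpa UMIs.

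**Figure D4:**
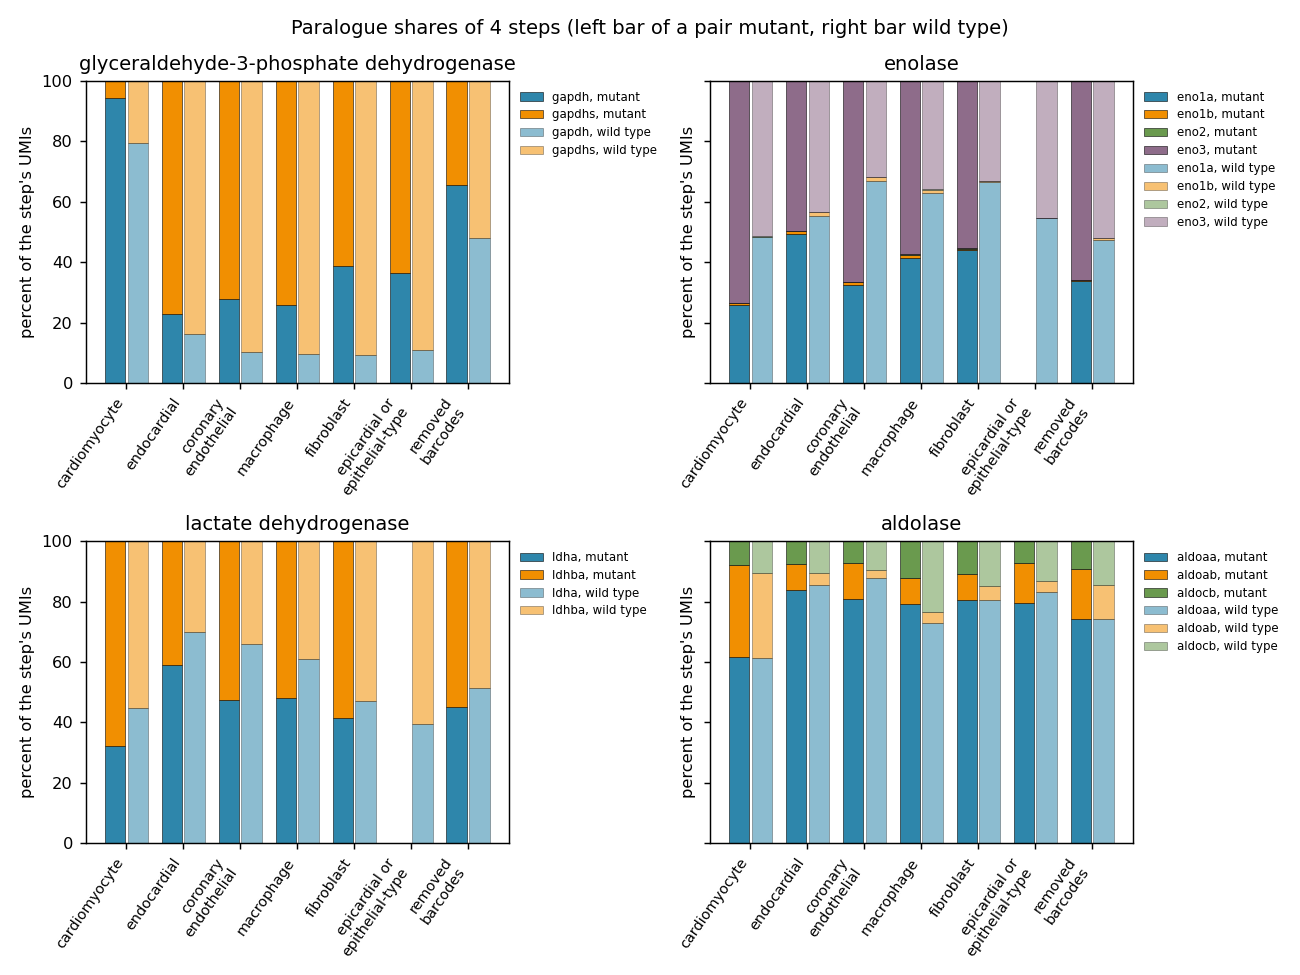
Share of the UMIs of 4 steps taken by each paralogue in 6 cell classes and in removed barcodes, with the mutant library as the left, darker bar of each pair and the wild-type library as the right, paler bar; a bar is missing where the step had fewer than 50 UMIs. Cardiomyocyte-like cells stand out by gapdh (94.4% and 79.5%), and eno3 takes a larger share in the mutant than in the wild-type bar of each pair drawn.

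Between genotypes, glycolysis transcripts were lower in most mutant classes, and the class medians of coronary endothelial-like, macrophage-like and fibroblast-like cells lay further below 0 than those of all genes. In coronary endothelial-like cells the 12 genes that reached 50 UMIs had a median log2 ratio (mutant over wild type) of -1.63, beside -0.39 over all genes passing the same limit. In this class 8 of the 12 were at least 2-fold lower (21.2% of all genes), and 0 were at least 2-fold higher (3.88% of all genes). They included eno1a, at 72.9 CPM in mutant and 379 CPM in wild-type cells (log2 ratio -2.38, -2.94 to -1.82), pkma at 78.2 and 341 CPM (-2.12, -2.68 to -1.56), gpia at 39.8 and 161 CPM (-2.01, -2.83 to -1.19) and gapdhs at 729 and 2140.4 CPM (-1.55, -1.75 to -1.35). By contrast gapdh was at 281 and 244 CPM (0.20, -0.30 to 0.74) and eno3 at 149.9 and 180.0 CPM (-0.26, -0.87 to 0.39). The class had 85 wild-type cells, and joining clusters 7 and 12 to it gave a median of -1.16. Naming cells by their marker UMIs left 177 mutant and 23 wild-type cells and 4 genes, with a median of -0.43 beside -0.25 over all genes.

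In macrophage-like cells the median over 19 genes was -1.17, beside -0.46 over all genes, and 11 of 19 were at least 2-fold lower, where 17.1% of all genes were, against 0 at least 2-fold higher (2.41% of all genes). The lowest ratio was that of eno1a, at 176 CPM in mutant and 588 CPM in wild-type cells (-1.74, -1.93 to -1.55), followed by aldocb at 68.2 and 211 CPM (-1.63, -1.94 to -1.32). Genes at least 2-fold lower lay at steps from hexokinase to lactate dehydrogenase, from hk2 (-1.24, -1.75 to -0.73) through pfkpa (-1.29), tpi1b (-1.13), gapdhs (-1.45), pgk1 (-1.42), pgam1a (-1.44) and pkma (-1.31) to ldha (-1.17). Other forms at these steps, such as eno3 (-0.46, -0.65 to -0.26) and ldhba (-0.42, -0.69 to -0.15), were less than 2-fold lower. The 3 genes with a ratio above 0 were gapdh (0.28, 0.08 to 0.49), aldoab (0.50, -0.04 to 1.07) and pfkmb (0.50, -0.31 to 1.36), each of them more than 4-fold higher in cardiomyocyte-like cells. The cardiomyocyte markers took 0.40% of mutant and 0.28% of wild-type macrophage-like UMIs. Within cluster 5 (56 mutant and 915 wild-type cells) the median was -0.94, beside -0.36 over all genes, and gapdh was at -0.36. Within cluster 3, which held 1326 of the mutant and 38 of the wild-type cells, the median was -0.21, beside -0.36 over all genes, so the genes were not lower than all genes there, and gapdh was at -0.17. Both cluster medians lay nearer 0 than the class median.

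In fibroblast-like cells the median over 20 genes was -0.74, beside -0.37 over all genes. At least 2-fold lower were 4 of 20, where 8.64% of all genes were: gapdhs, at 550 CPM in mutant and 1619 CPM in wild-type cells (-1.56, -1.64 to -1.48), eno1a at 126 and 305 CPM (-1.28, -1.46 to -1.11), tpi1b at 140.4 and 323 CPM (-1.20, -1.37 to -1.04) and gpia at 47.5 and 108 CPM (-1.19, -1.48 to -0.90). At least 2-fold higher was gapdh alone, at 348 and 165 CPM (1.08, 0.91 to 1.25), where 2.82% of all genes were. Within clusters 1, 4 and 8 the gapdh ratio was 0.41, 0.34 and 0.20, smaller than in the class as a whole. The cardiomyocyte markers summed to 4613 CPM in mutant and 2653 CPM in wild-type fibroblast-like cells, and gapdh had 75.4 and 62.1 UMIs per 1000 marker UMIs in them. In cluster 4, which held 391 mutant and 821 wild-type cells, the median was -1.20 (all genes -0.51) and 9 of 16 genes were at least 2-fold lower (17.3% of all genes). In cluster 8, with 129 mutant and 368 wild-type cells, it was -0.53 (all genes -0.16) and 2 of 12 genes were at least 2-fold lower (9.14% of all genes). Cluster 1 held 1787 of the 2307 mutant cells of the class but only 23 wild-type cells. There the summed glycolysis genes stood at 2645 CPM (2583 to 2708) in mutant and 3112 CPM (2537 to 3777) in wild-type cells. These intervals overlapped, whereas the class as a whole stood at 2466 CPM in mutant and 4296 CPM in wild-type cells.

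Endocardial-like cells, a single cluster with many cells of both libraries, showed a median of -0.41 over 15 genes, beside -0.38 over all genes. Only aldocb was at least 2-fold lower, at 37.8 CPM in mutant and 77.2 CPM in wild-type cells (-1.03, -1.79 to -0.26), where 16.6% of all genes were, and 0 genes were at least 2-fold higher (2.37% of all genes). Here gapdhs was at 1052 and 1476 CPM (-0.49, -0.64 to -0.34) and tpi1b at 195 and 333 CPM (-0.77, -1.11 to -0.43). The genes as a group were thus shifted no more than all genes in this class. In epicardial or epithelial-type-like cells the median was -0.50 over 12 genes and -0.50 over all genes, although 4 of 12 were at least 2-fold lower (20.3% of all genes) and 0 at least 2-fold higher (2.5% of all genes). These were gpia, tpi1b, gapdhs and eno1a, with gapdhs at 285 CPM in mutant and 1047 CPM in wild-type cells (-1.88, -2.27 to -1.51). The equal medians of this epicardial or epithelial-type-like class depended on the choice of cells. At most 30% mitochondrial UMIs gave -0.50 beside -0.49 over all genes. At least 300 genes gave -0.83 beside -0.48, Leiden resolution 0.5 gave -0.64 beside -0.38, and classes from marker UMIs gave -0.67 beside -0.27.

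Cardiomyocyte-like cells had the highest median ratio, 0.12 over 18 genes, beside -0.34 over all genes. The muscle enolase eno3 was at 1240.2 CPM in mutant and 602 CPM in wild-type cells (1.04, 0.71 to 1.37), the only gene at least 2-fold higher, where 7.26% of all genes were. Close to it were pgam2 (0.96, 0.14 to 1.72), ldhba at 1205 and 660.2 CPM (0.87, 0.53 to 1.19) and gapdh at 5745 and 3849 CPM (0.58, 0.43 to 0.72). At least 2-fold lower was gapdhs (-1.55, -2.14 to -1.01), where 23.9% of all genes were. These values turned on which clusters made up the class. Within cluster 14 the median was -0.14, beside 0.06 over all genes, and within cluster 10 it was -0.07, beside -0.04. The genes as a group thus lay above all genes in neither cluster. In clusters 14 and 10 gapdh was at 0.27 and -0.33, and eno3 at 0.57 and 0.45. Cluster 14, the richer in gapdh, held 35 of 74 mutant and 65 of 442 wild-type cells of the class. Joining the unnamed cluster 2 to the class gave a median of -0.88 and eno3 at -0.24. Naming cells by their marker UMIs gave a median of -1.19, beside -0.47 over all genes, and eno3 at -0.62. The sign of the median for cardiomyocyte-like cells thus differed between these choices of cells.

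**Figure D5:**
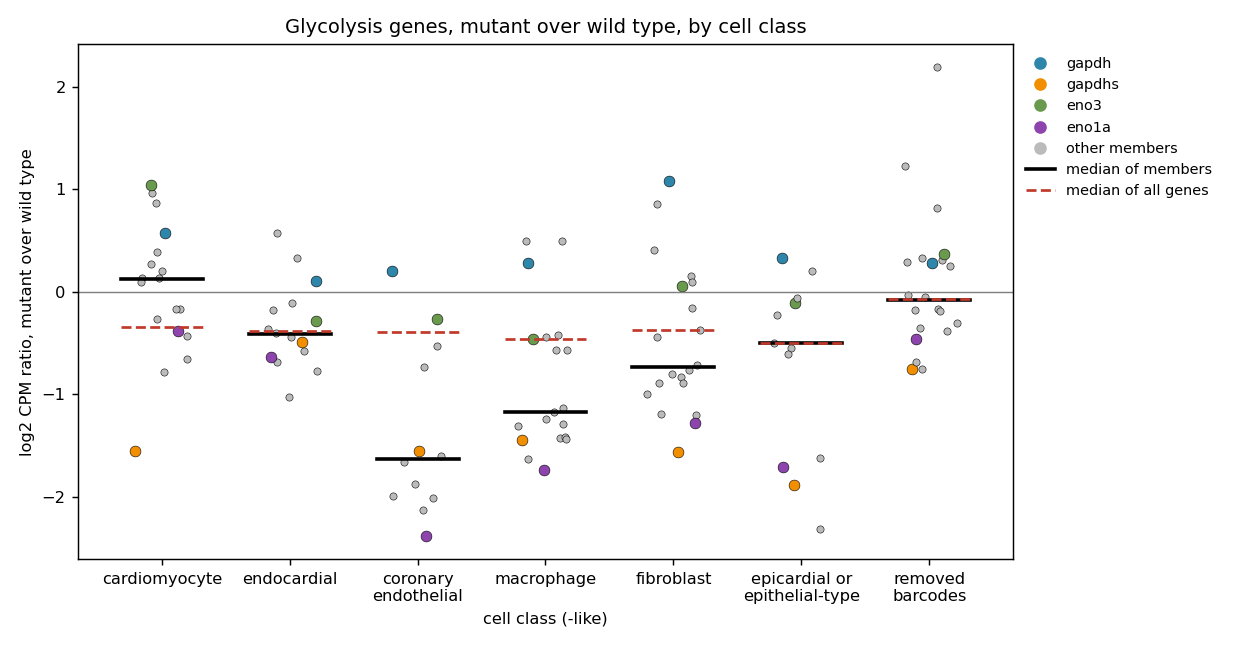
Log2 ratio of CPM, mutant over wild type, for each gene that reached 50 UMIs in the class, in 6 cell classes and the removed barcodes, with the median of the glycolysis genes (black bar) and of all genes passing the same limit (red dashed bar). The black bar lies below the red one in coronary endothelial-like (-1.63 and -0.39), macrophage-like (-1.17 and -0.46) and fibroblast-like cells (-0.74 and -0.37), and gapdhs is below 0 in each column.

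Of the 14 glycolysis genes with at least 1000 UMIs, 2 (gapdhs and tpi1b) were lower in the mutant library in all 13 clusters with at least 20 cells of each library. Of all 1093 genes with as many UMIs, 7.96% were, and with 14 genes a count of 2 lies near that share. The genes eno1a, aldocb, pgk1 and pkma were lower in 12 of 13, whereas gapdh was lower in 4, ldhba in 5 and aldoab in 6. The share of all genes was not computed for these counts, so they are not read as a result about these genes. In the removed barcodes the median over 21 genes was -0.08, beside -0.07 over all genes, 0 genes were at least 2-fold lower (3.88% of all genes) and 2, hk2 and pgam2, at least 2-fold higher (5.48% of all genes). There gapdhs was at 661 CPM in mutant and 1117 CPM in wild-type barcodes (-0.76, -0.89 to -0.62) and gapdh at 1261 and 1035 CPM (0.28, 0.15 to 0.42), so both differed in the direction seen in fibroblast-like cells. Summed over every kept cell, the 31 genes stood at 3214 CPM in mutant and 5508 CPM in wild-type cells (log2 ratio -0.78, -0.80 to -0.75), and 8 of 22 genes were at least 2-fold lower (9.95% of all genes) and 0 at least 2-fold higher (1.78% of all genes).

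Genes around the pathway were read from lists of 74 symbols, of which 69 were found. Of the other isoforms of the steps, slc2a3b, a GLUT3 glucose transporter, had the most UMIs, at 86.4 CPM in mutant and 232 CPM in wild-type macrophage-like cells (-1.42, -1.71 to -1.14), and 19.5 and 19.3 CPM in fibroblast-like cells (0.01, -0.55 to 0.60). Of the enzymes that set fructose 2,6-bisphosphate, the activator of phosphofructokinase, pfkfb3 had the most. It was at 86.4 and 157 CPM in macrophage-like cells (-0.86, -1.17 to -0.56). In the lactate and pyruvate list, led by bsg, the chaperone of lactate transporters, 0 of 7 passing genes were 2-fold lower in macrophage-like cells (17.1% of all genes) and the median was 0.03. The pyruvate carrier mpc1 was the only gene of that list at least 2-fold higher in cardiomyocyte-like cells (1 of 7, against 7.26% of all genes), at 526 CPM in mutant and 262 CPM in wild-type cells (1.00, 0.48 to 1.51). In the glycogen and pentose phosphate list, led by the transketolase tktb, 1 of 4 passing genes was 2-fold lower in macrophage-like and 1 of 5 in fibroblast-like cells (17.1% and 8.64% of all genes). In the oxygen-sensing list, led by the hypoxia factor hif1ab, 3 of 6 passing genes were 2-fold lower in macrophage-like cells (17.1% of all genes), 4 of 4 in coronary endothelial-like cells (21.2%) and 2 of 12 in fibroblast-like cells (8.64%), where 1 was 2-fold higher (2.82%). The factor hif1ab was at 94.2 CPM in mutant and 212 CPM in wild-type coronary endothelial-like cells (-1.17, -1.79 to -0.53), while epas1b, an endothelial hypoxia factor, was at 182 and 386 CPM (-1.09, -1.53 to -0.62). In endocardial-like cells 1 of 6 passing genes was 2-fold lower (16.6% of all genes), epas1b at -1.15. In epicardial or epithelial-type-like cells it was 1 of 2 (20.3%), hif1ab at -1.57, and in cardiomyocyte-like cells 0 of 2 (23.9%).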

How the data were processed

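Single-cell RNA from the border zone and injured tissue was prepared with 3' v3.1 droplet chemistry after removal of dead cells, 1 lane per library. The deposited values are whole-number counts of UMIs per gene and barcode with no normalisation. Per the study's methods the authors aligned reads to danRer11 and counted with STARsolo; the annotation and the handling of multi-mapping reads are not given in the sources used here. The genes and lists were chosen with earlier results of these data known.

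Barcodes with more than 300 genes and at most 70% mitochondrial UMIs were kept, and doublets were left in. Clustering used scanpy 1.11.5 (2000 variable genes chosen with library as batch, among genes seen in at least 30 cells, 50 principal components, 15 neighbours, Leiden resolution 1, seed 1) without mitochondrial, ribosomal protein, glycolysis and pathway genes, and without correction between libraries. A cluster was named "-like" from at least 3 marker genes over 2-fold and a median log2 fold of at least 0.5, thresholds set after the clusters were seen. A lead of 0.5 was required only over classes of another family (vascular, blood, erythroid, stromal or cardiomyocyte). Within a family the highest median decided, or for blood cells the most markers over 2-fold. The leading genes had to hold at least as many markers of the own family as of any class outside it. Scores came from the library with more cells in the cluster. UMIs were summed per class and library and scaled to 1000000 non-mitochondrial UMIs (CPM), with exact Poisson intervals. Ratios had exact conditional intervals and shares Clopper-Pearson intervals, at 95%. PCR duplicates collapse into UMIs, and the intervals, like the limit of 3 counts where a gene had 0, describe counting error alone. Medians added 0.5 UMIs and used genes reaching 50 UMIs in the class, and shares needed 50 UMIs of the step. Genes with at least 50 UMIs over all cells, the leading paralogue of each step and the most abundant gene of each pathway list were named by rule. Alternatives covered cell filters, denominators, UMI minimums, clustering resolution, classes by marker UMIs, subtraction of free RNA and the choice of clusters. The ratio and its interval were run on simulated Poisson counts. These hold no variation between cells, fish or libraries, so the run checks the computation only. Examples of eno3, ldhba and gapdh within clusters were chosen after their values were seen. No genome of this build was at hand, so no positions or sequences are given.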

Additional observations from a re-analysis of the deposited data

Results flagged for a closer look

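2 genes had counting intervals on opposite sides of 0 in different classes. The ratio of eno3 was 1.04 (0.71 to 1.37) in cardiomyocyte-like cells and -0.46 (-0.65 to -0.26) in macrophage-like cells. The ratio of ldhba was 0.87 (0.53 to 1.19) in cardiomyocyte-like cells, -0.42 (-0.69 to -0.15) in macrophage-like cells and -0.44 (-0.62 to -0.26) in fibroblast-like cells. The direction of eno3 in cardiomyocyte-like cells turned to -0.24 with cluster 2 joined and to -0.62 with classes from marker UMIs, and relative to the median of all genes eno3 in macrophage-like cells was at 0.0023. These settings were not run for ldhba. These are log2 ratios of mutant over wild type from 1 library each, and the differences between classes were not tested.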

How the results depend on the processing

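Values are medians of the log2 ratio, mutant over wild type. Of 76 medians under other settings, 63 stayed within the order-statistic interval of the main value. That interval covers the spread between genes of 1 pathway, which are not replicates, so this count does not measure stability. Other values were compared with the counting interval of the main value. Outside it lay 39 of 59 summed levels, 38 of 80 shares of the glyceraldehyde-3-phosphate dehydrogenase step and 96 of 355 single-gene ratios. A further 2 single-gene ratios changed sign, counting only those at least 2-fold from equality in the main setting. Sign changes of smaller ratios, such as gapdh in cardiomyocyte-like and macrophage-like cells, were not counted apart. Subtracting free RNA gave -1.20 in fibroblast-like, -1.54 in macrophage-like, -2.24 in coronary endothelial-like and -0.33 in cardiomyocyte-like cells. The cardiomyocyte-like value rests on a limit of 90% set on the subtracted share in wild-type cells, whose haemoglobin share (0.758%) exceeded that of the removed barcodes (0.641%), against 53.4% in mutant cells. Scaling to the median of gene ratios gave -0.031 in endocardial-like, -0.0056 in epicardial or epithelial-type-like and 0.46 in cardiomyocyte-like cells. In fibroblast-like cells, all UMIs as denominator gave -0.93, at most 30% mitochondrial UMIs -0.90 and cluster 4 alone -1.20. Classes from marker UMIs gave -0.43 in coronary endothelial-like cells (177 mutant and 23 wild-type cells, 4 genes) and -1.19 in cardiomyocyte-like cells (2076 and 461 cells), with eno3 at -0.62. Joining cluster 2 to the cardiomyocyte-like class gave -0.88, with eno3 at -0.24. The medians of macrophage-like and fibroblast-like cells were below 0 in each setting run. The macrophage-like median lay between -1.54 and -0.71, and at -0.21 in cluster 3 alone. The leading paralogue was the same in both libraries in 21 of 25 combinations with more than 500 genes per barcode and in 16 of 19 with 200 UMIs per step, against 32 of 40, and in 30 to 48 elsewhere. The number of combinations changed with the setting, so the counts of 30 to 48, given without totals, do not measure agreement. The cause of the differences in leading paralogue was not tested. The choices on clusters 2, 4, 5, 7, 10, 12 and 14 were added after seeing the data. With more than 500 genes, epicardial or epithelial-type-like cells numbered 13 in the mutant library, where the median was -1.47 beside -0.37 over all genes, and were left out of the counts above because of their number. No paired analysis was possible because each genotype has 1 library, and for the same reason no library could be left out. Depth limits single genes most in the 74 mutant cardiomyocyte-like and 85 wild-type coronary endothelial-like cells.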
